A study of Mus musculus with 6 samples.

Results

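The 8 genes described here, Ly6c2, Plac8, Chil3, Cd226, Retnla, Folr2, Lyve1 and Cd209a, are used as markers of recruited monocytes, of small peritoneal macrophages and of macrophages that descend from monocytes. They were taken by symbol from the 19973 genes of a table of normalized read counts, and all 8 were found. The libraries came from old mice (18 months) and young mice (2 months), all male C57BL/6, an inbred laboratory strain. Every mouse had received zymosan A, a yeast cell wall preparation that starts a self-limiting peritonitis, at 200 µg into the peritoneal cavity, and the cavity was washed out 72 hours later. The cells were kept overnight in medium with L-cell medium, a source of the macrophage growth factor CSF1. Cells that had not attached were then removed, and the rest received the vehicle, phosphate-buffered saline, for 6 hours. The attached cells were not sorted, so the libraries can hold any cell type that stayed on the dish. There were 3 old and 3 young libraries. The labels mention both separate mice and repeated sequencing of one mouse's RNA, and do not say which of these the libraries of a group are, so the p-values measure only the spread between libraries, which may be technical.

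Macrophages of the peritoneal cavity are of more than one kind. Large resident macrophages are long-lived, depend on the transcription factor GATA6 and are depleted from lavage fluid in acute inflammation. Small peritoneal macrophages carry MHC class II, depend on IRF4 and are replenished from blood monocytes that enter through the chemokine receptor CCR2. Classical monocytes are recognised by high surface Ly6C, the product of Ly6c2, and by Plac8, and they lose surface Ly6C as they become macrophages. Cd226, Retnla and Cd209a are found in the small, monocyte-replenished population, Chil3 in maturing monocytes and in macrophages exposed to interleukin-4, and Lyve1 with Folr2 in interstitial macrophages of several tissues. Most of these names are not restricted to macrophages. Ly6c2 and Cd226 are also transcribed by T cells and NK cells, Plac8 by B cells and granulocytes, and Lyve1 by lymphatic endothelium.

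Ly6c2 and Plac8 were more than 10-fold higher in old than in young libraries, Folr2 was 1.51-fold higher, and Chil3 did not pass the test. Lyve1 had no read in any old library and 19 reads in the 3 young ones together. Cd226 had a higher normalized count in every old library than in any young one, but at fewer than 10 reads per library, and Retnla and Cd209a were at a few reads in both ages. Genes were tested where their mean over the 6 libraries was at least 10 normalized counts, which 4 of the 8 members reached, and 3 of these 4 were higher in old and 0 lower (limma, Benjamini-Hochberg adjusted p under 0.05). Over all 11795 tested genes, 35.5% were called, 17.9% as higher and 17.6% as lower in old. On whole reads recovered from the table, edgeR and DESeq2 called the same 3 members, with 16.2% and 15.7% of all tested genes called as higher. Ly6c2 and Plac8 had young means under 10 and passed the filter only through their old values, so they had to differ to be tested, and the count of 3 is a description only. Among all 8 members, old and young libraries did not overlap for 5, 4 with old above young and 1 with old below young, where 33.4% of all listed genes did not overlap. Of the 4 members under the filter 2 did not overlap, Cd226 and Lyve1, where 13.2% of all genes under the filter did not.

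**Figure D1:**
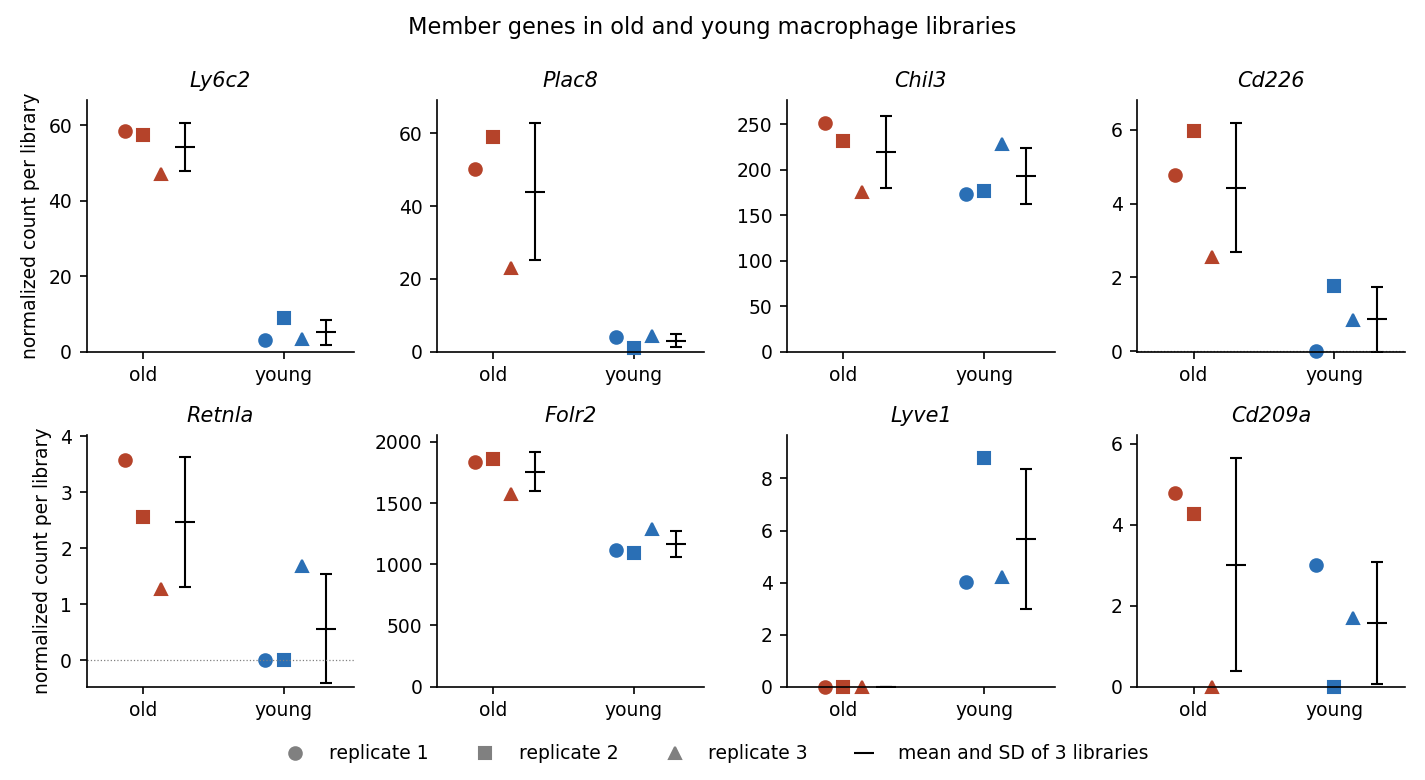
Normalized counts of the 8 genes on linear axes, 1 panel per gene, with old libraries on the left and young libraries on the right of each panel. Symbols mark the replicate number and the bars give the mean and SD of 3 libraries, which for Retnla and Cd226 reach below 0 in young. Ly6c2 and Plac8 sit at 22.9 or above in every old library and at 8.77 or below in every young one, whereas Lyve1 is at 0 in all old libraries.

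Read totals lay between 8163016 and 13007604 in old and between 9795602 and 12482266 in young libraries. At that depth 1 read was worth 0.845 to 1.27 normalized counts, so values under about 10 rest on a handful of reads and their precision is set by counting. The libraries carried their labelled cell type: all 8 macrophage markers were read in every library, with a summed level of 345260 to 430480 normalized counts in old and 274830 to 349800 in young. Most of that sum was the lysozyme gene Lyz2, with means of 348660 in old and 268080 in young. Old replicate 3 and young replicate 3 stood apart from the other libraries of their age, at opposite ends of the second principal component (18.2% of the variance, after 71.5% on the first, which separated the ages). Old replicate 3 also had 1.34% of its reads on nuclear ribosomal RNA genes, against 0.0177% to 0.154% in the other 5 libraries. Results are therefore also given without the libraries numbered 3.

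Ly6c2 (chromosome 15, 75108158 to 75111970, minus strand, GRCm38) encodes the Ly6C surface protein of classical monocytes. It had 58.6, 57.3 and 47.0 normalized counts in old replicates 1, 2 and 3, from 49, 67 and 37 reads. In young replicates 1, 2 and 3 it had 3.02, 8.77 and 3.38 normalized counts, from 3, 10 and 4 reads. The lowest old library was thus several times above the highest young one, and the old libraries lay close together. The means were 54.3 ± 6.34 in old and 5.06 ± 3.22 in young (SD, n = 3 each), a 10.7-fold difference. On the log2(normalized count + 1) scale, which understates the change of low genes, the difference was 3.31 ± 0.39 (SE; adjusted p = 1.75e-04 in limma). Only 53 of the tested genes had a higher fold change, a description only, as Ly6c2 was tested only through its old values. Without both libraries numbered 3 the difference was 3.23 (adjusted p = 2.85e-07 in limma). In bulk RNA, fewer cells of a type and less RNA per cell cannot be told apart, so the value does not say whether old cultures held more Ly6C-high cells or more Ly6c2 transcript in each cell. Part of the Ly6c2 count is uncertain, because 30.8% of the 50-base words in its coding transcripts also occur in its neighbour Ly6c1, which is not analysed here.

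Plac8 (chromosome 5, 100553725 to 100572245, minus strand), a cysteine-rich protein gene of monocytes and other leukocytes, had the higher fold change of this pair and the wider spread. Old replicates 1, 2 and 3 had 50.2, 59.0 and 22.9 normalized counts, from 42, 69 and 18 reads. Young replicates 1, 2 and 3 had 4.02, 0.877 and 4.23 normalized counts, from 4, 1 and 5 reads. The ages did not overlap, but old replicate 3 was at 0.419 of the mean of the other old libraries, while Ly6c2 in that library was at 0.811. The means were 44.0 ± 18.8 in old and 3.04 ± 1.88 in young (SD, n = 3 each), 14.5-fold, with a log2 difference of 3.51 ± 0.54 (SE; adjusted p = 8.71e-04 in limma). A higher fold change was reached by 39 tested genes, which is a description for the same reason as with Ly6c2. Without both libraries numbered 3 the difference was 4.17 (adjusted p = 7.29e-08 in limma). No 50-base word of Plac8 was shared with another gene.

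The promoters of the 3 members that were higher in old are shown because these members moved in the same direction. Each window is from RefSeq on GRCm38.p6, written 5′ to 3′ on the gene's own strand, and runs from 250 bases before to 50 bases after the gene's start. Capitals mark matches to any of 6 motifs searched on both strands: GAGGAAGT for PU.1, the myeloid master regulator, GAAANNGAAA for interferon response elements, TTGCNNAA for C/EBP factors, TTCNNNNGAA for STAT6, TATAAA for the TATA box and CCAAT for the CCAAT box. The motifs were chosen after the windows had been seen. The windows lie at chr15:75111922-75112221 for Ly6c2, chr5:100572156-100572455 for Plac8 and chr7:101857141-101857440 for Folr2, all on the minus strand.
Ly6c2: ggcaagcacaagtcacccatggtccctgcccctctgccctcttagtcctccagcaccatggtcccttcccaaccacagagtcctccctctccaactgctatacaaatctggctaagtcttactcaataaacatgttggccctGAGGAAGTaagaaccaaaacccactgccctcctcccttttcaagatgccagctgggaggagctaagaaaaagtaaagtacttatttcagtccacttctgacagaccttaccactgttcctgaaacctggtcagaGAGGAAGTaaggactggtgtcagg
Plac8: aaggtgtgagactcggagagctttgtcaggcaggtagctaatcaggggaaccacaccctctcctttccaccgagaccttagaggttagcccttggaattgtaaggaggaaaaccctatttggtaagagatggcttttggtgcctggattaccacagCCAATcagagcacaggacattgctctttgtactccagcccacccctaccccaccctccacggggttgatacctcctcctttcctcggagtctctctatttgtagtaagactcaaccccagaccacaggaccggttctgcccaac
Folr2: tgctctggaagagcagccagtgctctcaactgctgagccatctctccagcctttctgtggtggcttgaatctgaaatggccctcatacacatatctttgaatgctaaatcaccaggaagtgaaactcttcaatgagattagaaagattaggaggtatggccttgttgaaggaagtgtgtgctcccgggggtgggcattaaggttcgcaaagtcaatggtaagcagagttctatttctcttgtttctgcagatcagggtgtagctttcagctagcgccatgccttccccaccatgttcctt
The Ly6c2 window held the PU.1 letters at 2 places, with first bases at -108 and +27 from the start. Of 32851 RefSeq promoter windows of this length, 3.20% held the PU.1 letters and 20 windows (0.0609%) held them at 2 or more places. The Plac8 window held a CCAAT box at -94, as 37.4% of all windows held one somewhere, and the Folr2 window held none of the 6 motifs in their exact letters. The 3 windows therefore had no exact match to any of the 6 in common. Near matches were not counted, so a window without a match can still hold related letters. As the letters were chosen with the windows seen, these counts and shares are a description. A match is a run of letters and was not set against any binding data.

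Other genes of classical monocytes did not all move with Ly6c2 and Plac8. Of 14 such genes, all tested, 6 were higher in old, 3 were lower and 5 were not called, with a median log2 fold change of 0.12 against 0.00 over all tested genes. Without both libraries numbered 3, 8 were higher and 3 lower, where 30.3% of all tested genes were called as higher and 28.7% as lower. Vcan, the versican proteoglycan gene, had 1232 ± 49.4 normalized counts in the old libraries and 369.8 ± 13.7 in the young (SD, n = 3 each; adjusted p = 1.92e-07 in limma). Hp, the haptoglobin gene, had 522.5 ± 18.1 in old and 219.7 ± 6.63 in young (adjusted p = 2.29e-06 in limma). In the other direction, F13a1, the coagulation factor XIII A chain gene, had 1320 ± 99.9 normalized counts in the old libraries and 4736 ± 496 in the young (adjusted p = 7.02e-07 in limma), and the fibronectin gene Fn1 had a log2 difference of -2.81 (adjusted p = 4.12e-07 in limma). Ccr2, the receptor that brings monocytes into the cavity, was looked at after its value was known. It had 289.6 ± 76.0 normalized counts in the old libraries and 300.0 ± 24.3 in the young, and its log2 difference of -0.09 did not pass (adjusted p = 0.742 in limma).

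Non-classical monocyte genes went both ways. Of 8 tested genes 1 was higher in old, 3 were lower and 4 were not called, with a median of -0.35, where 17.9% of all tested genes were higher and 17.6% lower, and a ninth was under the filter. Without both libraries numbered 3, 1 was higher and 2 were lower, where 30.3% of all tested genes were called as higher and 28.7% as lower. Treml4, a receptor gene of Ly6C-low monocytes, was 2.39-fold higher in old (adjusted p = 0.00312 in limma). The fractalkine receptor gene Cx3cr1 had 74.8 ± 8.99 normalized counts in the old libraries and 541 ± 48.9 in the young (SD, n = 3 each; adjusted p = 2.47e-07 in limma), 7.23-fold higher in young. Itgal, the integrin chain of LFA-1, had a 2.07-fold excess in young (adjusted p = 8.77e-06 in limma), and the adhesion receptor gene Adgre4 was at -0.61 (adjusted p = 0.0347 in limma). Of the relatives of Ly6c2, Ly6a (Sca-1) had 185 ± 38.2 normalized counts in the old libraries and 38.4 ± 12.1 in the young, a log2 difference of 2.26 ± 0.23 (SE; adjusted p = 7.19e-05 in limma).

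Markers of other leukocytes were higher in the same old libraries as Ly6c2 and Plac8. All 8 B cell markers were called as higher in old, where 17.9% of all tested genes were. Their summed levels were 2659, 3013 and 1397 normalized counts in old replicates 1, 2 and 3, against 62.4, 51.8 and 58.3 in the young ones in the same order. None of the 8 was at 0 in a whole group. In old replicate 3 the B cell markers were at 0.401 to 0.592 of the mean of the other old libraries, with a median of 0.488. Plac8, at 0.419 from 18 reads in that library, lay inside that range and Ly6c2, at 0.811, did not. Genes of other lists lay there too. The classical monocyte gene Ms4a4c was at 0.515, and the members Cd226 and Retnla, at a few reads each, were at 0.472 and 0.413. The median of the classical monocyte list was 0.844. Over all tested genes the median of this ratio was 0.964, with 0.708 and 2.04 at the 5th and 95th percentiles. Both T and NK cell markers that were tested, Cd28 and Lck, were higher in old. The other 11 of the 13 listed ones were under the filter. Of the 13, 11 had all old libraries above all young ones. Over all listed genes 33.4% did not overlap in either direction, and 7.23% of genes under the filter had old above young. The summed level of the 13 was 199 to 289 normalized counts in old and 97.2 to 112 in young. Most of that sum was Cd28 in both ages, with a mean of 148 in old and 94.5 in young. Trac, Ncr1 and Prf1 were at 0 in every young library. In old replicates 1, 2 and 3 Trac had 8, 14 and 3 reads. Ncr1 had only 1, 1 and 0 and Prf1 1, 2 and 0 there, so the ages overlapped for Ncr1 and Prf1. Of 6 tested mast cell markers 5 were higher in old, with sums over the 8 listed markers of 552 to 630.0 in old and 46.3 to 71.1 in young, and a median ratio in old replicate 3 of 0.963. Of 4 tested neutrophil markers, 3 were higher and 1 was lower in old, with sums over 8 listed markers of 8424 to 10358 in old and 1235 to 1321 in young. In old most of the sum came from the protease gene Mmp8, with a mean of 8169 normalized counts. In young Mmp8 had a mean of 285.1, below Mmp9 at 499.8. Camp was at 0 in every old library, with 2, 0 and 0 reads in young replicates 1, 2 and 3. Cxcr2 was at 0 in every young library, with 0, 1 and 1 reads in old replicates 1, 2 and 3. The ages overlapped for both Camp and Cxcr2. The part of these cells in the Ly6c2 and Plac8 values was not tested.

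**Figure D2:**
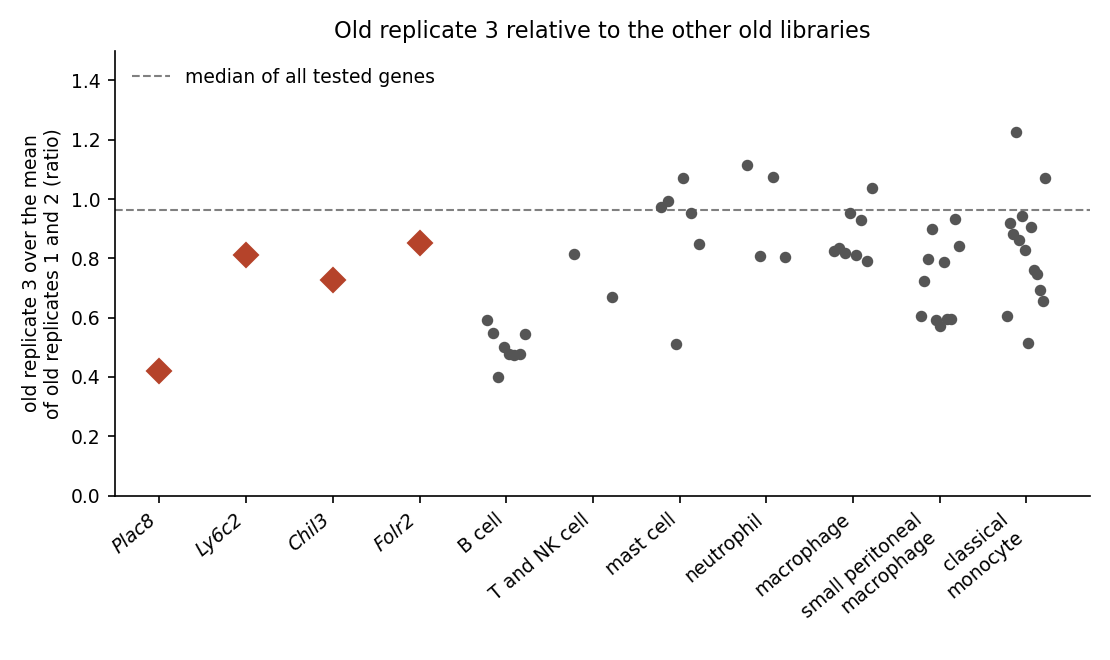
Ratio of old replicate 3 to the mean of old replicates 1 and 2, in normalized counts on a linear axis, for the 4 tested members (diamonds) and for the tested genes of 7 marker lists (dots). Plac8 at 0.419 sits level with the B cell dots (0.401 to 0.592), while Ly6c2, Chil3 and Folr2 sit between 0.726 and 0.852, and the dashed line marks the median of all tested genes at 0.964. The lowest classical monocyte dot, Ms4a4c at 0.515, lies in the range of the B cell dots as well.

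The genes whose pattern over the 6 libraries was most like that of each member were found by the root mean square difference of log2 values after each gene's own mean was removed, among 9254 genes for Ly6c2 and Plac8. The nearest to Ly6c2 were the mast cell carboxypeptidase gene Cpa3 at 0.283, Dio2, for a deiodinase, at 0.330 and Il1f9, for interleukin-36 gamma, at 0.332. The nearest to Plac8 was the B cell receptor component Cd79b at 0.529, followed by the macrophage elastase gene Mmp12 at 0.569 and the mast cell chymase gene Cma1 at 0.592. Cd79b had 122, 150.4 and 54.6 normalized counts in the 3 old libraries in order of replicate number, against 4.02, 2.63 and 5.07 in the young ones. It shared with Plac8 the low value of old replicate 3. Likeness over 6 libraries is a description, and the values share the same libraries and the same contrast.

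Cd226, Retnla and Cd209a, the members known from small peritoneal macrophages, were all under the low-value filter. For such genes the exact permutation test over 3 against 3 libraries cannot go below 0.1. Cd226 (chromosome 18, 89176967 to 89272229, plus strand) encodes the receptor DNAM-1, which binds the poliovirus receptor and nectin-2. It had 4.78, 5.98 and 2.54 normalized counts in old replicates 1, 2 and 3, from 4, 7 and 2 reads. In young replicates 1, 2 and 3 it had 0, 1.75 and 0.845 normalized counts, from 0, 2 and 1 reads. On normalized counts all old libraries were above all young ones, although old replicate 3 and young replicate 2 had the same 2 reads, which gave the smallest possible 2-sided exact permutation p of 0.1. Among the 8178 genes under the filter 7.23% had all old libraries above all young ones. In the edgeR fit without a filter, which was added after seeing the data, the log2 fold change was 2.17 and did not pass (adjusted p = 0.104, where 9.97% of all listed genes were called as higher), and limma without a filter gave 1.60 (adjusted p = 0.0634). Old replicate 3 was at 0.472 of the mean of the other old libraries.

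Partners and relatives of Cd226 gave the following values. Its ligand genes did not pass, with Pvr at 297 ± 5.97 normalized counts in the old libraries and 336 ± 22.1 in the young (adjusted p = 0.127 in limma) and Nectin2 at 31.7 ± 4.25 in old and 27.7 ± 2.10 in young (adjusted p = 0.553 in limma). Cd96, another lymphocyte receptor for the poliovirus receptor, was under the filter at 9.60 ± 2.81 normalized counts in old and had no read in young (SD, n = 3 each). Cd96 is a T and NK cell gene, and the T and NK cell markers given above were higher in the same libraries.

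Retnla (chromosome 16, 48842551 to 48844461, plus strand) encodes RELM-alpha, a secreted protein that interleukin-4 induces in macrophages through STAT6. It had 3.58, 2.56 and 1.27 normalized counts in old replicates 1, 2 and 3, from 3, 3 and 1 reads. In young replicates 1 and 2 it had no read and in young replicate 3 it had 1.69 normalized counts, from 2 reads. The ages overlapped, since young replicate 3 was above old replicate 3 (2-sided exact permutation p = 0.2). Cd209a (chromosome 8, 3743397 to 3748984, minus strand) encodes a C-type lectin of monocyte-derived dendritic cells and small peritoneal macrophages. Cd209a had 4.78, 4.27 and 0 normalized counts in old replicates 1, 2 and 3, against 3.02, 0 and 1.69 in the young ones in the same order. With 9 reads in old and 5 in young, its ages overlapped (2-sided exact permutation p = 0.5). A difference in Retnla or Cd209a was not detectable at this depth, with edgeR adjusted p of 0.315 for Retnla and 0.568 for Cd209a without a filter. Leaving out old replicate 3 removed the overlap for both genes, at which point 24.9% of all genes under the filter did not overlap (40.2% without both libraries numbered 3).

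The Retnla promoter window (chr16:48842359-48842658, plus strand, same source and motifs) is shown because it held the most motifs of the 6 windows searched, in a gene that was almost silent here.
Retnla: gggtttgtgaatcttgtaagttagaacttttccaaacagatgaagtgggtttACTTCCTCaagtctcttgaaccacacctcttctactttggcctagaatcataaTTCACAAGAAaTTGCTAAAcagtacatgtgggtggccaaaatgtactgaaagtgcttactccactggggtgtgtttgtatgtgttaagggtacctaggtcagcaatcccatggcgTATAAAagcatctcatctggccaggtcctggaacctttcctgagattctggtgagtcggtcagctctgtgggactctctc
Its capitals are a PU.1 site read on the opposite strand with its first base at -198, a STAT6 site at -145 and, with 1 base between them, a C/EBP site at -134, and a TATA box at -30. The STAT6 letters were held by 6.95% of all windows, the C/EBP letters by 10.8% and the TATA box by 13.6%. The windows of Ly6c2, Plac8, Folr2, Chil3 and Cd209a held no STAT6 or C/EBP letters. The window does not show whether any factor was bound in these cells.

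Other genes of small peritoneal macrophages were higher in old in most cases. Of 11 tested genes 7 were higher, 1 was lower and 3 were not called, with a median of 1.33, and 2 more were under the filter. Over all tested genes 17.9% were higher and 17.6% lower. Without both libraries numbered 3 there were 8 higher and 1 lower, where 30.3% of all tested genes were called as higher and 28.7% as lower. Irf4, the transcription factor gene that this population needs, had 111 ± 29.9 normalized counts in the old libraries and 18.2 ± 2.62 in the young (SD, n = 3 each; log2 fold change 2.51 ± 0.24, SE; adjusted p = 4.66e-05 in limma). Itgax (CD11c) was 2.81-fold higher in old (adjusted p = 1.70e-06 in limma). The MHC class II transactivator gene Ciita was 4.36-fold and the invariant chain gene Cd74 2.54-fold higher in old. Mrc1, the mannose receptor gene, was the lower one at -0.38 (adjusted p = 0.0143 in limma). Irf4, Ciita, Cd74 and the MHC class II genes are also transcribed by B cells, whose 8 markers were all higher in old. In old replicate 3 Irf4 was at 0.596, Cd74 at 0.725 and Ciita at 0.797 of the mean of the other old libraries. The MHC class II genes H2-Aa, H2-Ab1 and H2-Eb1 were at 0.591, 0.571 and 0.596. Ccr2, which is on this list and was not called, was at 0.606, so a low value there was not limited to the genes named as shared with B cells. Itgax, at 0.933, was near the median of all genes. The part of B cells in these values was not tested. Of 8 dendritic cell markers only Ccr7 was tested, and it was higher in old, and the summed level of the 8 was 50.8 to 74.4 normalized counts in old and 19.4 to 25.4 in young.

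Chil3 (chromosome 3, 106147554 to 106167564, minus strand) encodes Ym1, a chitinase-like protein without enzymatic activity. It had 251, 232 and 175 normalized counts in old replicates 1, 2 and 3. In young replicates 1, 2 and 3 it had 173, 176 and 228 normalized counts. The ages overlapped, because old replicate 3 was the lowest old library and young replicate 3 the highest young one. The means were 219 ± 39.3 in old and 193 ± 30.9 in young (SD, n = 3 each), and the log2 difference of 0.18 ± 0.16 (SE) did not pass (adjusted p = 0.397 in limma). Without old replicate 3 the difference was 0.33 and passed (adjusted p = 0.0473 in limma), and without both libraries numbered 3 it was 0.46 (adjusted p = 9.67e-04 in limma), fits in which 23.6% and 30.3% of all tested genes were called as higher. The Chil3 call thus rested on these libraries. Some of its reads are uncertain as well, since 17.9% of the 50-base words in its coding transcripts occur in Chil4, which is not analysed here, and 14.1% in the gene model Gm6522. The genes most like Chil3 over the 6 libraries were the mitochondrial assembly factor gene Coa3 at 0.0387, Dph3 at 0.0391 and the ribosomal protein gene Rpl26 at 0.0473, which shared with it the low old replicate 3 and the high young replicate 3.

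Interleukin-4 response genes, the group to which Chil3 and Retnla belong, moved both ways. Of 9 tested genes other than the members, 3 were higher, 4 were lower and 2 were not called, with a median of 0.17. Over all tested genes 17.9% were higher and 17.6% lower. Arg1, the arginase that competes for arginine in such macrophages, had 301 ± 19.3 normalized counts in the old libraries and 2039.8 ± 242 in the young (SD, n = 3 each; adjusted p = 1.06e-07 in limma), 6.77-fold higher in young. Egr2, a transcription factor gene of the late interleukin-4 response, was 7.21-fold higher in old, with 682 ± 34.9 normalized counts in the old libraries and 94.6 ± 5.01 in the young (adjusted p = 6.73e-08 in limma). Tgm2, a transglutaminase gene, was at -0.87 (adjusted p = 8.72e-05 in limma). Chil3 lay between these, with a value that did not pass, and Retnla was at 3 reads or fewer in every library.

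Folr2 (chromosome 7, 101839988 to 101857194, minus strand) encodes folate receptor beta, a surface protein of tissue macrophages, and was the most abundant member by far. It had 1833, 1863 and 1575 normalized counts in old replicates 1, 2 and 3. In young replicates 1, 2 and 3 it had 1118, 1092 and 1291 normalized counts. The ages did not overlap, and the libraries numbered 3 were again those nearest to the other age. The means were 1757 ± 159 in old and 1167 ± 108 in young (SD, n = 3 each), 1.51-fold, with a log2 difference of 0.59 ± 0.09 (SE; adjusted p = 9.29e-04 in limma). Without both libraries numbered 3 it was 0.74 (adjusted p = 1.81e-10 in limma). Folr2 shares 975 exon bases with an antisense gene model on the other strand, Gm10602, and the sources used here do not give whether counting used strand. Gm10602 itself had 11.0 ± 3.71 normalized counts in the old libraries and 11.6 ± 1.99 in the young. Of the other folate carriers, the proton-coupled transporter gene Slc46a1 had 82.0 ± 5.23 in old and 58.4 ± 8.11 in young (adjusted p = 0.0339 in limma), and the reduced folate carrier gene Slc19a1 had 99.9 ± 6.74 in old and 118 ± 16.4 in young (adjusted p = 0.227 in limma).

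The 3 genes most like Folr2 over the 6 libraries were the lysosomal carboxypeptidase gene Ctsa at 0.0209, Spg21 at 0.0209 and the endosomal protein gene Litaf at 0.0251. Ctsa had a log2 difference of 0.59, as Folr2 had. Where 17.9% of all tested genes were called as higher in old, 6 of the 8 macrophage markers were, with a median log2 fold change of 0.38. Among them Cd14, the lipopolysaccharide co-receptor gene, was 1.86-fold and the lysosomal glycoprotein gene Cd68 1.69-fold higher in old. The log2 difference of Folr2, 0.59, lay between those of the efferocytosis receptor gene Mertk at 0.33 and Cd14 at 0.89.

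**Figure D3:**
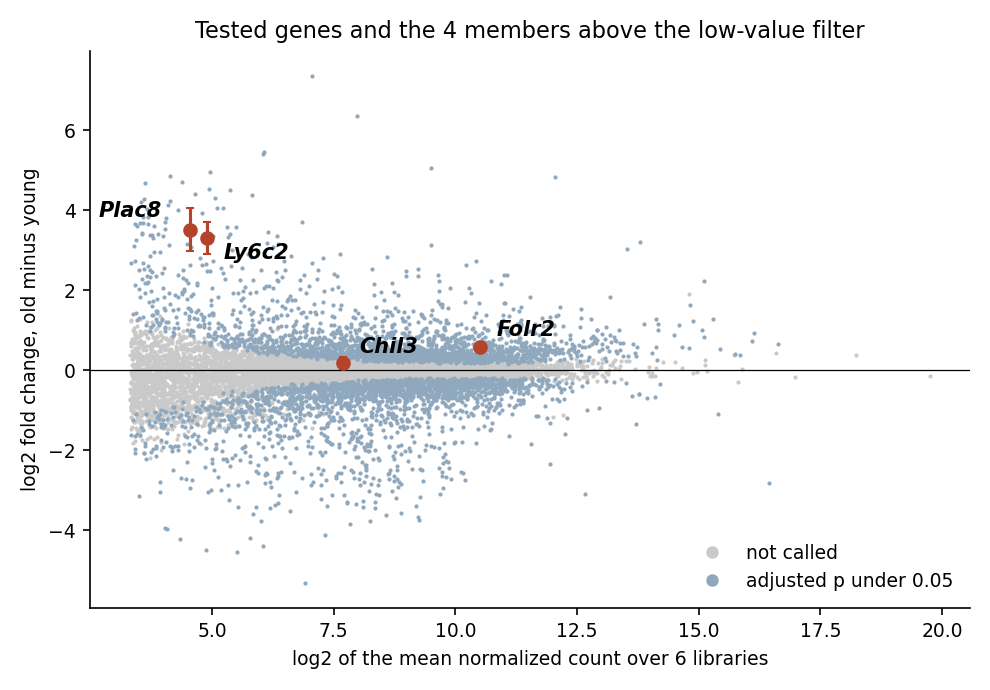
Log2 fold change, old minus young, against the log2 mean normalized count for the 11795 tested genes, with genes at an adjusted p under 0.05 in blue and the others in grey. The 4 tested members are in red with bars of 1 SE: Plac8 at 3.51 and Ly6c2 at 3.31 lie near the top among genes of low mean, Folr2 at 0.59 lies among called genes and Chil3 at 0.18 among those not called.

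Lyve1 (chromosome 7, 110850607 to 110863239, minus strand) encodes a hyaluronan receptor of lymphatic endothelium and of perivascular and interstitial macrophages, and it was the member that went the other way. It had no read in old replicates 1, 2 and 3. In young replicates 1, 2 and 3 it had 4.02, 8.77 and 4.23 normalized counts, from 4, 10 and 5 reads, with a mean of 5.67 ± 2.69 (SD, n = 3). All old libraries were below all young ones (2-sided exact permutation p = 0.1, the smallest possible), as were 5.94% of all genes under the filter. A count of 0 allows up to 3 reads over the old group, or 1.07 normalized counts, against 5.73 over the pooled young reads. That ratio, 5.33-fold lower in old, allows for counting error on the old side only. The counting error of the 19 young reads is left out, so the ratio is not a lower bound. Without a filter it was called as lower in old by limma (adjusted p = 0.00212), with 10.3% of all 19973 genes, and by edgeR (adjusted p = 0.00607), with 11.7%. Of the 5 listed lymphatic endothelial markers 2, Prox1 and Flt4, were under the filter. Prox1, which defines that lineage, had 0.968 ± 0.877 normalized counts in the old libraries and 0.282 ± 0.488 in the young, and Flt4 had 0.683 ± 0.616 in old and 3.32 ± 2.18 in young (SD, n = 3 each). Of the 3 tested genes of that list, Pecam1 was higher in old and Pdpn and Cdh5 were not called, and the summed level of the 5 listed was 1988 to 2487 normalized counts in old and 1720.1 to 2282 in young, mostly from Pdpn, which macrophages also transcribe. The part of endothelial cells in the Lyve1 value was not tested.

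Genes around hyaluronan, the ligand of Lyve1, were read as follows. Hyal1 and Hyal2, which degrade hyaluronan, were higher in old, at 144 ± 20.7 normalized counts in the old libraries and 42.5 ± 6.70 in the young for Hyal1 (SD, n = 3 each; adjusted p = 4.52e-05 in limma), and at a log2 difference of 0.89 for Hyal2 (adjusted p = 1.86e-04 in limma). Has2, a hyaluronan synthase gene, was under the filter with 0, 1 and 0 reads in old replicates 1, 2 and 3, against 3, 5 and 9 in the young ones in the same order, and all its old libraries were below all young ones. Of the other hyaluronan receptors, Hmmr, which also acts at the mitotic spindle, had a 7.99-fold excess in young (adjusted p = 1.61e-06 in limma), and Cd44 had a log2 difference of 0.18 that did not pass (adjusted p = 0.0990 in limma).

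Lyve1 and Folr2 are used together to name interstitial macrophages, and here they went in opposite directions. Of 13 tested genes of such macrophages other than these 2, 5 were higher in old, 7 were lower and 1 was not called, with a median of -0.38. Over all tested genes 17.9% were higher and 17.6% lower. Stab1, a scavenger receptor gene, had a 2.54-fold excess in young (adjusted p = 2.85e-06 in limma) and the carbonyl reductase gene Cbr2 had 66.0 ± 16.2 normalized counts in the old libraries and 353 ± 72.8 in the young (SD, n = 3 each; adjusted p = 1.32e-05 in limma). The endothelin receptor gene Ednrb had 225 ± 15.4 in old and 81.2 ± 6.63 in young (adjusted p = 1.07e-05 in limma). F13a1, given above, is on this list too. Folr2 thus sided with the 5 higher genes and Lyve1 with the 7 lower ones.

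**Figure D4:**
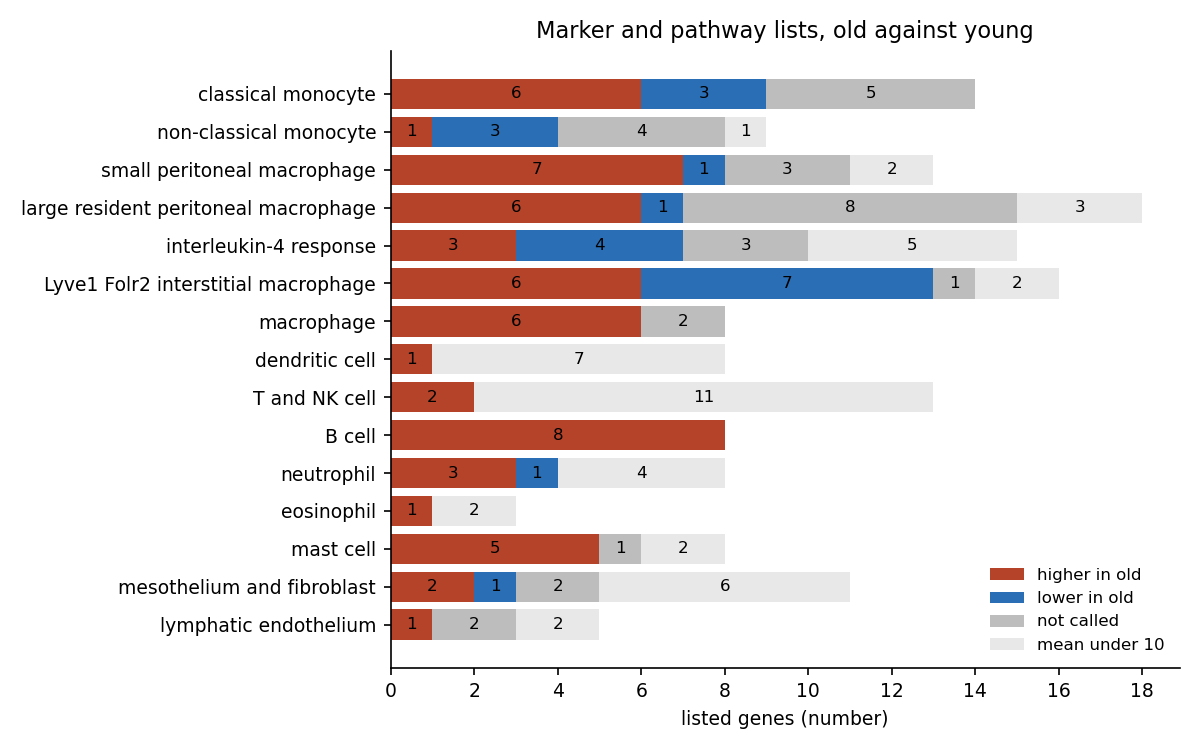
Number of listed genes per marker or pathway list, split into those higher in old, those lower in old, those not called and those with a mean under 10 normalized counts. All 8 B cell genes and 7 of 13 small peritoneal macrophage genes are higher in old, whereas the interstitial macrophage list is divided, with 6 higher (Folr2 among them) and 7 lower.

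Levels of different members were compared per kilobase of annotated exon. In old libraries Folr2 came first at 1137 normalized counts per kilobase, followed by Chil3 at 134, Plac8 at 27.6 and Ly6c2 at 19.8, where the last pair overlapped between libraries. Retnla at 4.13, Cd209a at 1.91 and Cd226 at 0.907 came next, each overlapping its neighbour, and Lyve1 was last. In young libraries Folr2 at 755 and Chil3 at 118 per kilobase kept their places. Below them Lyve1 at 1.94, Plac8 at 1.91 and Ly6c2 at 1.85 did not differ beyond the spread between libraries. Cd209a overlapped Ly6c2 above it, and Cd209a, Retnla and Cd226 each overlapped the next. Among all tested genes, ranked per kilobase, Folr2 stood at percentile 97.2 in old and 96.2 in young and Chil3 at 72.6 in old and 68.8 in young. Plac8 stood at 31.3 in old and 1.66 in young, and Ly6c2 at 24.5 in old and 1.57 in young, so that even in old libraries both lay in the lower part of the tested genes. Both were tested only through their old values, so their low places in young follow in large part from the filter and are a description only.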

How the data were processed

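RNA-seq libraries had been made with Illumina's TruSeq protocol, per the labels' protocols. The deposited table holds a signal per Ensembl gene and library: read counts divided by a size factor, with DESeq2 and mm10 named in the submitters' processing notes, without versions. Which aligner, counter and annotation served is not given in the sources used here. All values were whole multiples of 1 step per library, so reads were recovered (100% whole within 0.01 reads).

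Symbols, positions and exon lengths came from GENCODE on GRCm38, the assembly of mm10, and 19917 identifiers matched. In R 4.3.3 a limma 3.58.1 fit with prior variance trend used log2(normalized count + 1) of all genes with a mean of at least 10, old minus young, Benjamini-Hochberg over 11795 genes at 0.05. Both groups were drawn from the titles. The fit was tested on simulated counts. Members under the filter got 2-sided exact permutation tests. Alternatives were other pseudocounts (0.5 and 5), other filters (none, or a mean of 50 or more), quantile and TMM scaling, no trend, protein-coding genes only, the replicate number as a block, libraries left out, and edgeR 4.0.16 and DESeq2 1.42.0 on recovered reads.

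The members and the gene lists were chosen with earlier results of these data known. The naming rule takes all members, the called genes with the lowest adjusted p in each list, at most 4, and relatives, ligands and partners beside their member. Not every gene it allows is named. Other genes in the text, such as Ccr2, Ms4a4c, Lyz2, Gata6, Cdh5, Pdpn, Siglecf, Ccr3, H2-Aa, H2-Ab1, H2-Eb1 and the markers at or near 0 (Trac, Ncr1, Prf1, Camp, Cxcr2, Prox1 and Flt4), were picked after their values were seen. Likeness was ranked among genes with a mean of at least 50.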

Additional observations from a re-analysis of the deposited data

How the results depend on the processing

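Ly6c2, Plac8 and Folr2 stayed higher in old and called under every alternative that could test them, 17 for Ly6c2, 17 for Plac8 and 18 for Folr2. Log2 differences ran from 2.60 to 3.71 for Ly6c2, from 2.55 to 4.17 for Plac8 and from 0.54 to 0.74 for Folr2, with adjusted p up to 0.00252, 0.00937 and 0.0148. Chil3 was called in 2 of 18, those without old replicate 3, over a range of 0.08 to 0.46. With a mean of at least 50 as the filter only Chil3 and Folr2 could be tested, and 1 member was higher. Without a filter 1 member, Lyve1, was lower. With each library left out in turn, 3 to 4 members were higher and 0 were lower, and of the 4 members under the filter 2 to 4 had libraries that did not overlap, 4 of them without old replicate 3 and also 4 without both libraries numbered 3. Genes called, 4183 of 11795, ran from 2940 to 5660 with 1 library left out and came to 6960 without both libraries numbered 3. The replicate block gave 2643 called genes, but the numbers share nothing known: same-numbered libraries deviated with correlations of -0.382, -0.361 and -0.676, so they were not taken as pairs, and under the block Ly6c2, Plac8 and Folr2 were still called. Members with under 10 reads per library are limited by counting, and intervals and floors cover counting error only.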

Other observations

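Genes of large resident peritoneal macrophages, the population that the members are usually set against, gave 6 higher, 1 lower and 8 not called of 15 tested, with a median log2 fold change of 0.46. Over all tested genes 17.9% were higher and 17.6% lower. Without old replicate 3 the list had 11 higher and 1 lower, and without both libraries numbered 3 it had 10 higher and 1 lower. In those fits 23.6% and 30.3% of all tested genes were called as higher. The coagulation factor X gene F10 had 2811 ± 246 normalized counts in the old libraries and 597 ± 20.8 in the young (SD, n = 3 each; adjusted p = 1.06e-07 in limma). The ficolin gene Fcna was 2.25-fold and the plasminogen activator inhibitor gene Serpinb2 2.33-fold higher in old, and the coagulation factor V gene F5 was 1.84-fold higher in young. Gata6, the transcription factor gene that defines this population and which was looked at after its value was known, had 9.99 ± 0.378 normalized counts in the old libraries and 14.9 ± 2.50 in the young and was not called. Of 5 tested markers of mesothelium and fibroblasts, 2 were higher (Col3a1 and Pdgfra) and 1 was lower (Col1a1) in old, with summed levels over 11 listed markers of 685 to 777 normalized counts in old and 662 to 805 in young. The 1 tested eosinophil marker, Il5ra, had 26.4 ± 4.21 normalized counts in the old libraries and 1.55 ± 1.38 in the young, and passed the filter only through its old values. Siglecf and Ccr3 were under the filter and overlapped between the ages. Siglecf had means of 4.74 in old and 4.47 in young, and Ccr3 had 8.41 in old and 5.33 in young. The other 4 genes of the eosinophil list were not analysed.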
